A study of Mus musculus with 2 samples.

Results

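The cells described here were β cells of multiparous mice that carried RNA of at least 1 of 5 genes linked to pregnancy, Lrrc55, Rerg, Cldn8, Tph1 and Esr1. A cell entered when Ins1 and Ins2, the insulin genes, gave at least 20% of its unique molecular identifiers (UMIs, the molecules counted), when the other islet hormone genes together gave under 1%, when it held fewer than 5 UMIs of Nupr1 and fewer than 2 of Pdyn, and when it held at least 1 UMI of the 5 genes. Nupr1 encodes a stress-responsive nuclear protein and Pdyn an opioid peptide precursor. In the multipara library 103 of the 638 β cells within these limits were carriers, out of 1448 β cells of that library and 7765 cells kept in both libraries. The multipara library came from islets of female C57BL/6J mice taken 3 weeks after the last of 3 consecutive pregnancies, and the virgin library from age-matched virgin littermates. The mice of both groups were 9 weeks old at the start. Each group was 1 10x Chromium 3′ library and the number of mice behind it is not in the labels, so the spread between animals is unknown. Cells of 1 library are not replicates. No test was run, and every interval is an exact 95% interval that covers counting error only.

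During pregnancy placental lactogens and prolactin act on the prolactin receptor of the β cell, and the STAT5 proteins carry this signal to genes such as Cish and Socs2, which restrain it. Tph1, the rate-limiting enzyme of serotonin synthesis, is among the genes that this pathway raises in the pregnant islet. Lrrc55 encodes an auxiliary subunit of the BK potassium channel, Rerg a Ras-like growth inhibitor named for its regulation by estrogen, Cldn8 a claudin of tight junctions and Esr1 the estrogen receptor α.

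STAT5 binds DNA at the letters TTCNNNGAA, which read the same on both strands. RefSeq promoter windows of GRCm38.p6, from 250 bases before to 50 bases after an annotated start, were found for Lrrc55, Tph1 and Esr1 among the 5 genes. These letters occurred in 8.30% of all 32851 windows. They were in neither the single Lrrc55 window nor either of the 2 Tph1 windows. Of the Esr1 windows 1 of 2 held them, as did 1 of the 3 windows of Prlr, the prolactin receptor. The Esr1 window near the start of the gene (chr10:4611739-4612038) did not, and the window that did lies further inside the gene. The Lrrc55 window lies outside the gene as located in GENCODE M21, which ends at 85197197. The Cish window held 2 copies. The 3 windows below are shown because Lrrc55 had no UMI in any virgin β cell under the limits, Esr1 was the carrier gene with a match, and Cish is a STAT5 target measured further on. Capitals mark the motif.
Lrrc55 (chr2:85198701-85199000, minus strand): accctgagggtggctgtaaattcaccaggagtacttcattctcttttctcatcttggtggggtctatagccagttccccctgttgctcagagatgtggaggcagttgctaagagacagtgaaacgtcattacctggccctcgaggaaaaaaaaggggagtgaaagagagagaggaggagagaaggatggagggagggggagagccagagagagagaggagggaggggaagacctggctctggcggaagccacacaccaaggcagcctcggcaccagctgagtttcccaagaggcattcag
Esr1 (chr10:4709908-4710207, plus strand): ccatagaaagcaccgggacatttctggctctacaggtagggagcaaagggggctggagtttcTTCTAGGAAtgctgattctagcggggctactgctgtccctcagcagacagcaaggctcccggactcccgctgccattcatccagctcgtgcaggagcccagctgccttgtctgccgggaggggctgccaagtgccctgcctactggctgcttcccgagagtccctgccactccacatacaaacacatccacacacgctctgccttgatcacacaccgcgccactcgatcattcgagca
Cish (chr9:107296409-107296708, plus strand): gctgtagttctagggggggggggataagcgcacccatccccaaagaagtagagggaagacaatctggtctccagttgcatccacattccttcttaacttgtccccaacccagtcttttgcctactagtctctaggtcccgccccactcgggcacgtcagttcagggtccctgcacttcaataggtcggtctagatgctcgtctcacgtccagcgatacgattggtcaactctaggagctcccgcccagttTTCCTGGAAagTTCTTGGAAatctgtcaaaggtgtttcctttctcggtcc
A match is a description of letters and was not tested as a binding site.

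The 103 carriers were 16.1% of the multiparous β cells under the limits (interval 13.4 to 19.2). In the virgin library 15 of 1241 β cells under the same limits carried any of the 5 genes, which was 1.21% (0.678 to 1.99). These shares chose the cells and are given as a description. All 15 virgin carriers held a single UMI. Of the multiparous carriers 82 held 1 UMI of the 5 genes, 15 held 2, 5 held 3 and 1 held 4, so that 21 cells, 3.29% of the 638 (2.05 to 4.99), held at least 2. No virgin β cell under the limits did, which allows a share of up to 0.242%. The carrier call therefore rested on a single molecule in most cells, and the 535 multiparous β cells without a UMI cannot be taken to lack the transcripts.

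Each of the 5 genes contributed carriers, as the plot of shares by gene shows. Cldn8 had the largest number of carrier cells, 48 of the 638 multiparous cells (7.52%, 5.60 to 9.85) with 58 UMIs, against 8 of 1241 virgin cells with 8 UMIs. Rerg followed with 24 cells and 25 UMIs against 3 cells and 3 UMIs. Lrrc55 was found in 20 multiparous cells with 26 UMIs and in no virgin cell. With 3 counts over all the virgin cells taken as the floor, its level was 18.0-fold the virgin one. The exact lower bound of its fold was 13.6. Esr1 gave 12 cells and 12 UMIs against 2 and 2, and Tph1 9 cells and 10 UMIs against 2 and 2. Scaled to counts per 1000000 UMIs (CPM), the multipara level was 15.1-fold the virgin one for Cldn8 (7.15 to 36.5), 17.3-fold for Rerg (5.28 to 89.5), 12.5-fold for Esr1 (2.77 to 115) and 10.4-fold for Tph1 (2.21 to 97.5). The widths of the last 3 intervals reflect 2 or 3 virgin UMIs each, and the order of these 4 folds is within counting error. All 5 genes were proposed from these same data and define the carriers, so the folds are a description and no independent evidence.

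**Figure D1:**
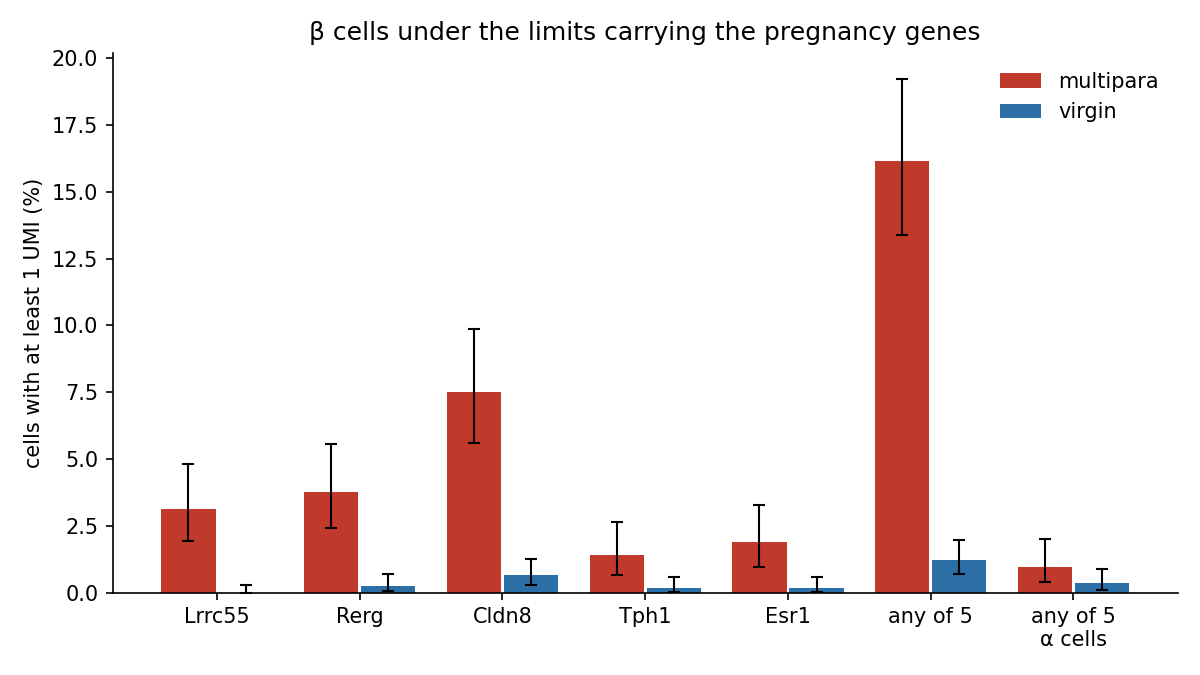
Share of β cells under the limits with at least 1 UMI of each gene, or of any of the 5 genes, in the multipara (red, 638 cells) and virgin (blue, 1241 cells) libraries, with the same share in α cells at the right. Bars are shares of cells in percent and lines are exact 95% binomial intervals. Every gene was detected in a larger share of multiparous than of virgin β cells, and the α cells of both libraries stayed under 1%.

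Free RNA and depth both bear on a share of cells with a UMI. Among α cells, which should lack most of these transcripts, 7 of 720 multipara cells (0.972%, 0.392 to 1.99) and 4 of 1134 virgin cells (0.353%, 0.0962 to 0.901) held any of the 5 genes, at median depths of 17755.5 and 16503 UMIs. Carriers were deeper than the other multiparous β cells under the limits, with a median of 35599 UMIs (4200 to 55160) against 27255. When every cell was thinned to 10000 UMIs, leaving out 144 multipara and 166 virgin cells that were shallower, 37 of 494 multiparous β cells (7.49%, 5.33 to 10.2) and 3 of 1075 virgin ones (0.279%, 0.0576 to 0.813) held a gene. At 20000 UMIs, a depth chosen after seeing the data, the shares were 14.3% (11.1 to 18.0) and 1.03% (0.497 to 1.89). Of the α cells thinned to 10000 UMIs, 4 of 649 in the multipara library held one (0.616%). The multiparous β-cell share stood above the α-cell share at that depth. The virgin β-cell share lay within the interval of virgin α cells, of which 0.203% (0.0246 to 0.732) held a gene. All 4 virgin α cells with a gene held Rerg and none of the 1134 held Cldn8 (exact upper bound 0.325%). Cldn8 was found in 8 of the 1241 virgin β cells (0.645%, 0.279 to 1.27), whose median depth was 29058 UMIs, and these intervals overlap. Thinned to 10000 UMIs, Cldn8 was in 2 of 1075 virgin β cells (0.186%, 0.0225 to 0.670) and 0 of 985 virgin α cells (upper bound 0.374%).

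The share of carriers climbed with depth in the multipara library. It was 2.78% of 144 cells under 10000 UMIs and 2.99% of 67 cells between 10000 and 20000. In deeper cells it was 12.9% of 124, 22.2% of 212 and 37.4% of 91, the last for 40000 to 60000 UMIs (27.4 to 48.1). In virgin β cells the highest share in any of these ranges was 2.10%, with an upper bound of 6.01%. The number of carriers is thus a number at a given depth.

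**Figure D2:**
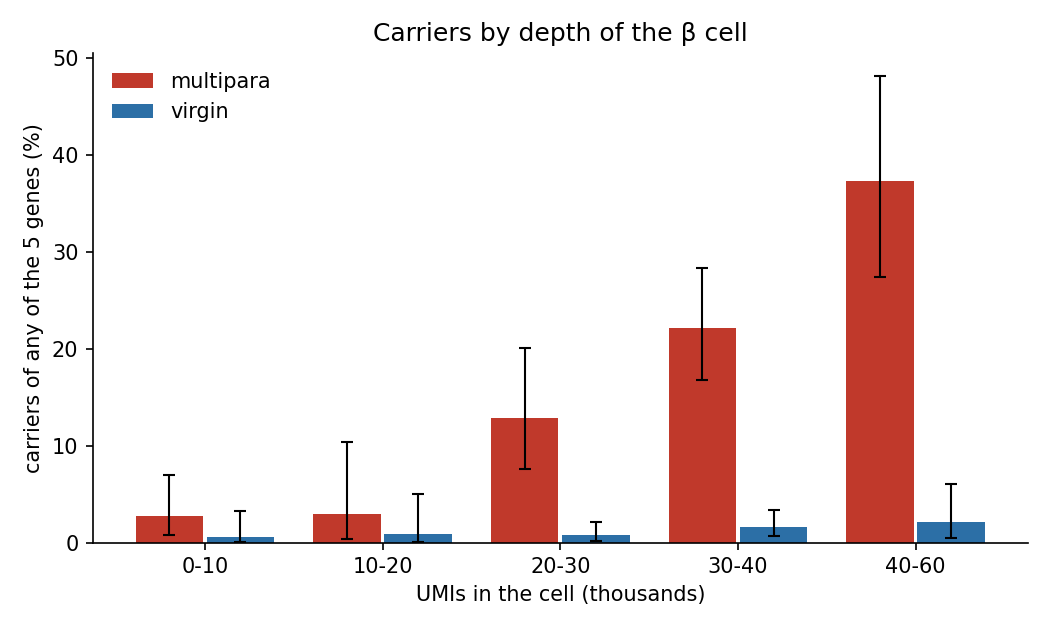
Share of β cells under the limits that carried any of the 5 genes, by the number of UMIs in the cell, for the multipara (red) and virgin (blue) libraries, with exact 95% binomial intervals. The multipara share went from 2.78% in the shallowest cells to 37.4% in the deepest, and the virgin share stayed at or under 2.10%.

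At the edges of the rule, 5 carriers held 4 Nupr1 UMIs, and 15 multiparous β cells with a pregnancy gene fell just outside with 5. Likewise 22 carriers held the single Pdyn UMI allowed, while 17 β cells with a pregnancy gene held 2. The insulin and hormone limits were far from the carriers, whose insulin share was at least 51.6% and whose other hormones reached at most 0.196%. The limits on Nupr1 and Pdyn kept out most of the cells with a pregnancy gene, since 311 of all 1448 multiparous β cells (21.5%, 19.4 to 23.7) held one. By Nupr1, with Pdyn under 2, the share was 15.5% of 375 cells with no Nupr1 UMI (12.0 to 19.5), 17.1% of 263 cells with 1 to 4 (12.8 to 22.2), 29.9% of 174 cells with 5 to 9 (23.2 to 37.3) and 22.2% of 423 cells with 10 or more (18.3 to 26.5). Median depth rose through these ranges, at 28391, 30442, 32076 and 36294 UMIs, while the share fell in the last. The part of depth in these differences was not tested. Thinned to 10000 UMIs, 10.0% of 648 cells with at least 5 Nupr1 UMIs and no limit on Pdyn (7.83 to 12.6) held a gene. The 7.49% above is of cells with Pdyn under 2, so these groups also differ in that limit.

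The 5 genes were mostly found in different cells. Of the carriers 94 held 1 of the genes, 8 held 2 and 1 held 3. Cldn8 alone marked 43 carriers, Rerg alone 20, Lrrc55 alone 14, Esr1 alone 10 and Tph1 alone 7. Cldn8 and Lrrc55 shared 3 cells, of which 1 also held Esr1, and Cldn8 and Rerg shared 2. To ask whether carriers of one gene hold another more often, carriers of any of the other 4 genes were paired with multiparous β cells of nearly equal depth that held none of those 4. Lrrc55 was found in 6 of 89 such carriers (6.74%, 2.51 to 14.1) and 1 of 89 paired cells (1.12%, 0.0284 to 6.10), a gap of 5.62 percentage points that became -2.25 when cells were paired on their number of detected genes. Rerg was found in 4 against 3 of 83, Cldn8 in 5 against 4 of 60, Tph1 in 2 against 4 of 96 and Esr1 in 2 against 2 of 93. The intervals overlapped for all 5 genes, and an excess of cells with several of the genes was not detectable at this depth. Without the limits on Nupr1 and Pdyn, Lrrc55 was found in 24 of 260 carriers of the others (9.23%, 6.00 to 13.4) and 19 of 260 paired cells (7.31%, 4.46 to 11.2).

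**Figure D3:**
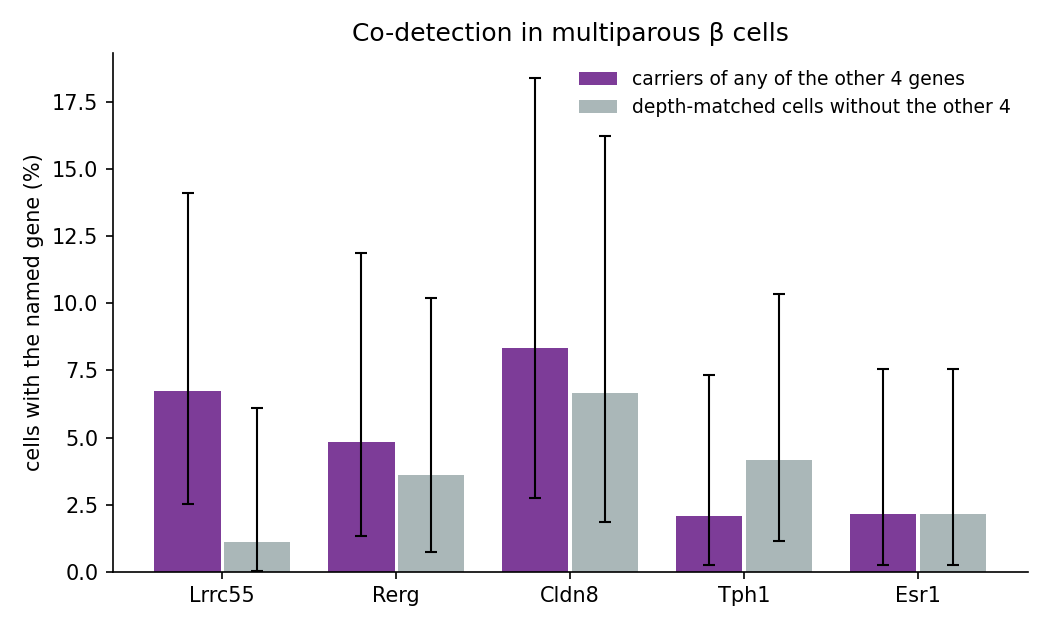
Share of cells holding the gene named on the x axis among multiparous β cells that carried any of the other 4 genes (purple) and among cells of matched depth without them (grey), with exact 95% binomial intervals. The intervals of the 2 bars overlapped for every gene.

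β markers that the rule did not use bore out the β-cell label. All 10 β markers were detected, among them Iapp, the amylin gene, and G6pc2 in 103 of 103 carriers, the glucose transporter Slc2a2 and the transcription factor Nkx6-1 in 102, Mafa in 101 and Pdx1 in 88. The 10 markers summed to 39469 CPM in the carriers, where they gave 2222 CPM in multipara α cells. Iapp alone gave 36785 CPM of the carrier sum. Slc30a8 went the other way, at 342 CPM in carriers and 429 CPM in multipara α cells. Among α markers Irx2 was at 0 in the carriers. The α list summed to 1360 CPM in carriers, 1341 CPM in depth-matched multiparous β cells and 2016 CPM in depth-matched virgin ones. The 5 δ markers summed to 76.7, 90.8 and 127 CPM in the same order, with Ghsr and Lepr at 0. The 3 pancreatic polypeptide cell markers summed to 257, 347 and 394 CPM. In carriers Gcg gave 553 CPM, Ttr 601 and Tmem27 160 of the α sum, and Sst 57.2 of the δ sum. The rule capped Gcg, Sst, Ppy and Pyy, so these low sums were partly set in advance. Endothelial, mesenchymal, macrophage, T-cell and acinar markers each summed to 1.10 CPM or less in carriers, and all 6 acinar markers were at 0. Of the 3 B-cell markers only Cd79a was found, at 11.3 CPM, with 13.5 and 26.4 CPM in the matched multiparous and virgin cells for the whole list. The ductal list summed to 91.6, 89.9 and 92.1 CPM, nearly all of it Krt7, with Sox9 at 0. Endothelial markers reached 25.3 CPM in the matched virgin cells against 1.10 in the carriers, and their part in the comparison with virgin cells was not tested. Scrublet called none of the 103 carriers a doublet, but it marked only 0.533% of multipara cells. The libraries shared 7 barcodes, of which 3 were kept in both and none was a carrier.

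To describe what else the carriers expressed, each was paired with 1 multiparous β cell under the same limits that held none of the 5 genes, at nearly the same number of UMIs, and separately with 1 such virgin β cell. All 103 could be paired in both ways. Summed, the carriers held 3636196 UMIs, the matched multiparous cells 3635540 and the matched virgin cells 3636513. The same carriers enter both comparisons, and the 5 genes are at 0 in the matched cells by construction. Insulin took a median of 62.0% of UMIs in carriers, 60.3% in matched multiparous and 59.5% in matched virgin cells, and the median number of genes detected was 4005, 4019 and 4140. Nupr1 was detected in 45, 43 and 28 of the 103 cells.

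Carriers resembled their multiparous neighbours of equal depth closely. Of 3034 genes that averaged 20 CPM or more over both sets, 11 were more than 1.5-fold higher in the carriers, which is 0.363%, and 11 were more than 1.5-fold lower, also 0.363%. With TMM scaling, which centres the bulk of genes, the split was 21 higher and 7 lower. Against the matched virgin cells 47 of 3099 genes were higher (1.52%) and 77 lower (2.48%), a split that became 91 and 25 under TMM, which moved every log2 ratio up by 0.13. All genes with at least 10 UMIs had a median log2 ratio of -0.028 against multiparous and -0.12 against virgin cells. Of these genes 5914 of 10363 were lower than in multiparous cells and 6423 of 10461 lower than in virgin cells. Lists below, and their counts of genes higher or lower, are read against these values.

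The prolactin receptor Prlr was higher in carriers than in both matched sets. It was present in every cell of all 3 sets, with 118 CPM in the lowest carrier, a median of 639 CPM and 1389 CPM in the highest, against a median of 472 CPM (76.2 to 2005) in the matched multiparous and 450 CPM (125 to 1207) in the matched virgin cells. The distributions overlapped over nearly their whole range. Summed, Prlr stood at 636, 519 and 472 CPM, a log2 ratio of 0.29 (0.20 to 0.38) against multiparous and 0.43 (0.34 to 0.52) against virgin cells. The carriers of each gene had similar Prlr levels, from 599 CPM (529 to 677) in the 12 Esr1 carriers to 659 CPM (603 to 720) in the 24 Rerg carriers. Cells with 1 UMI of the 5 genes had 639 CPM (609 to 669) and cells with at least 2 had 625 CPM (572 to 681). Over the 11 alternative settings the ratio against multiparous cells ranged from 0.18, without the limits on Nupr1 and Pdyn, to 0.41, with Nupr1 at 0.

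Of the 10 genes listed for prolactin and growth hormone signalling 8 had at least 10 UMIs, of which 4 were above and 4 at or below their level in matched multiparous cells, with a median log2 ratio of 0.11. Prlr made up most of the list's UMIs, so the list's sum, at 0.24 (0.16 to 0.32), is close to that of Prlr. Cish was at 20.9, 17.3 and 11.8 CPM in carriers, multiparous and virgin cells, with ratios of 0.27 (-0.23 to 0.78) and 0.82 (0.26 to 1.40). Socs3, another inhibitor of cytokine signalling, was at 74.3, 61.9 and 54.2 CPM. Socs2 lay the other way at 33.3 against 42.6 CPM in multiparous cells (-0.36, -0.71 to -0.0052) and 34.4 in virgin cells. The growth hormone receptor Ghr was at 62.7, 54.2 and 77.5 CPM, with ratios of 0.21 (-0.071 to 0.49) and -0.31 (-0.56 to -0.050), the latter 0.079 when 2 UMIs were required. Jak2, the kinase at the receptor, and Stat5a and Stat5b were at or under 10.7 CPM in all sets and their intervals against multiparous cells included 0. Against virgin cells Jak2 was lower, at 4.13 against 7.97 CPM (-0.95, -1.96 to -0.0045), and Stat5a was at 1.93 against 3.85 CPM, with an interval that included 0. Against virgin cells the list's median was -0.062 while its sum was 0.33, the latter again set by Prlr.

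The genes that stand beside the 5 in their own pathways differed little from the matched multiparous cells, and some were lower than in virgin cells. Among serotonin genes, Ddc, which completes serotonin synthesis, stood at 181, 171 and 180 CPM, and Gch1, which makes the Tph1 cofactor, at 106, 113 and 113 CPM. Tph2, the neuronal paralogue of Tph1, had 2.75, 1.38 and 1.10 CPM. The 6 serotonin genes with at least 10 UMIs had a median of -0.0075 against multiparous cells, 3 of them higher. Of 10 estrogen-related genes only Pgrmc1, Pgrmc2 and Esrra could be measured in that comparison, and all 3 had intervals that included 0. Of the BK channel subunits 2 of 8 were measured, and Kcnmb2 had 44.6, 40.7 and 56.4 CPM. Of 16 tight-junction genes 13 were measured, with a median of -0.032, and Cldn7 stood at 56.4 against 56.9 CPM in multiparous cells. Beside the 5 genes themselves, each gene named from these 4 lists had an interval against multiparous cells that included 0. Against virgin cells the tight-junction list had a median of -0.35 with 9 of 13 genes lower, beside 6423 of 10461 among all genes. Its sum was -0.15, with an interval that included 0 (-0.30 to 0.0042). The BK channel list had a sum of -0.32 (-0.58 to -0.062). Kcnmb2 was at -0.34 (-0.65 to -0.035), a ratio that was 0.12 when 2 UMIs were required. Pgrmc1, a progesterone receptor membrane component, was at 44.6 against 59.9 CPM in virgin cells (-0.43, -0.73 to -0.13).

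Of the 9 other genes linked to pregnancy in β cells that could be measured against multiparous cells 6 were higher, with a median of 0.15 and a sum of 0.30 (0.13 to 0.46), and only Matn2 and Mpzl1 had intervals that excluded 0. The median turned to -0.11 when cells were paired on detected genes. Matn2, an extracellular matrix protein, was at 46.2, 31.6 and 15.9 CPM and was detected in 68, 63 and 32 of 103 cells, with ratios of 0.55 (0.20 to 0.90) and 1.53 (1.10 to 1.99). Over the alternative settings the ratio against multiparous cells lay between 0.25 and 0.71. Among carriers it ranged from 34.2 CPM (17.1 to 61.2) in the 9 Tph1 carriers to 62.7 CPM (46.5 to 82.6) in the 20 Lrrc55 carriers. Mpzl1, a cell surface glycoprotein, was at 21.5 against 13.8 CPM in multiparous cells (0.64, 0.11 to 1.18), and Ivd, an enzyme of leucine breakdown, was at 53.6 against 33.8 CPM in virgin cells (0.66). Men1, whose product menin restrains β-cell growth, was equal at 8.53 CPM in carriers and multiparous cells, and Cdkn1b had 16.2 against 14.6 CPM.

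Fmo1, a flavin monooxygenase, set carriers most clearly apart from virgin cells, at 146, 122 and 26.7 CPM. Its ratio was 2.45 (2.14 to 2.78) against virgin and 0.25 (0.070 to 0.44) against multiparous cells, and it was detected in 84, 86 and 46 of the 103 cells. The 9 Tph1 carriers stood lowest at 62.2 CPM (38.0 to 96.0) and the 48 Cldn8 carriers highest at 170 CPM (151 to 190). With a mitochondrial share under 5% the ratio against multiparous cells was -0.052. Fmo1, like Matn2, Hmgcs1, Chd7 and Fh1, is part of a list of 10 genes taken from earlier results of these same libraries as higher in multiparous β cells, so its direction is no independent evidence. That list had a median of 0.88 against virgin cells with all 10 higher, and 0.15 against multiparous cells with 7 of 10 higher. The companion list of 5 lowered genes, Defb1, Pde5a, Sez6l and Marcks among them, had medians of -1.19 and -0.33. Defb1, a defensin, was at 39.1, 49.5 and 101 CPM. Pde5a, a cyclic GMP phosphodiesterase, was at 36.3, 31.6 and 85.0 CPM. Both medians were nearer 0 against the multiparous cells, which the choice of the lists on these same libraries set in advance.

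**Figure D4:**
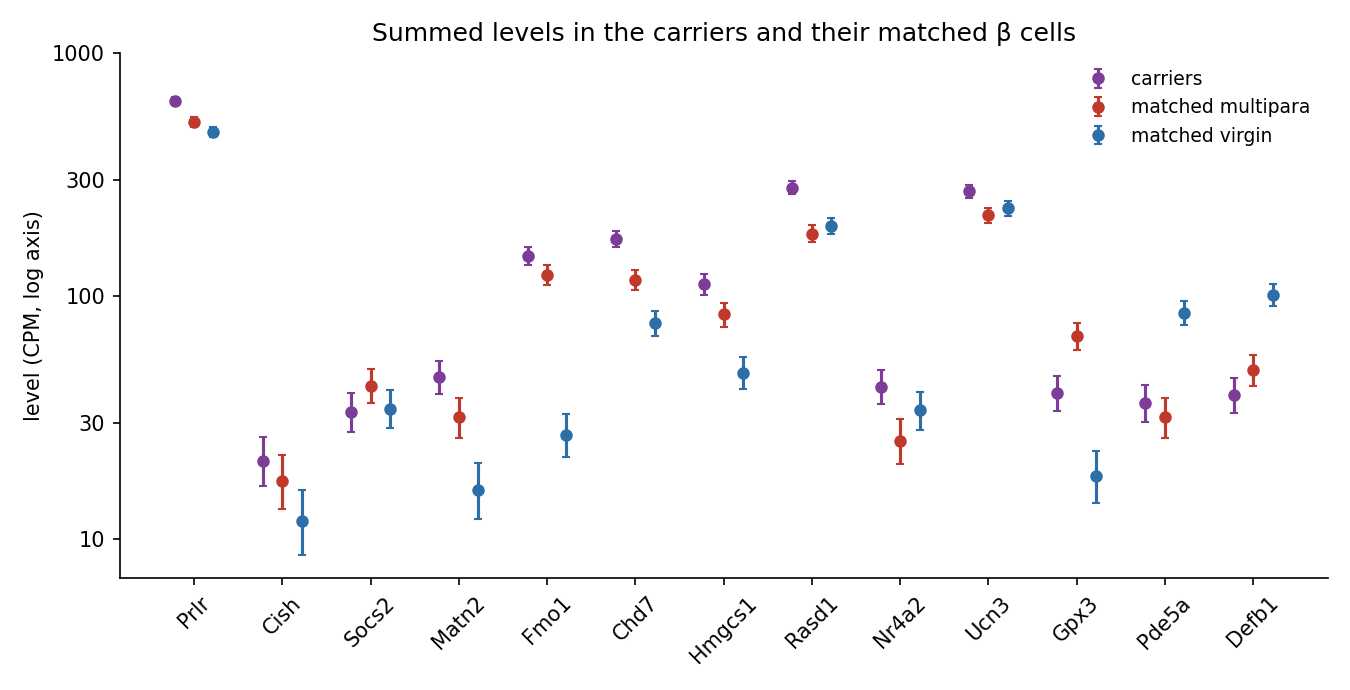
Summed level in CPM, on a log axis, of named genes in the 103 carriers (purple), their 103 depth-matched multiparous β cells (red) and their 103 depth-matched virgin β cells (blue). Lines are exact 95% Poisson intervals of the summed counts. Prlr, Matn2, Chd7, Hmgcs1, Rasd1, Nr4a2 and Ucn3 lay above the matched multiparous cells and Gpx3 below, while Fmo1, Pde5a and Defb1 differed mainly from the virgin cells.

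Among genes that averaged 50 CPM or more, the highest ratios against multiparous cells belonged to genes of several kinds. Gm26917, a non-coding RNA, led at 94.9 against 52.5 CPM, but 130 of its 345 UMIs lay in 1 carrier and its ratio of 0.85 turned to -0.058 when cells were paired on detected genes. Rasd1, a Ras-like G protein, was at 279, 181 and 194 CPM (0.63, 0.48 to 0.77, against multiparous cells), and in the 21 cells with at least 2 UMIs of the 5 genes its ratio was -0.39. Chd7, a chromatin remodeller, was at 172, 117 and 77.3 CPM (0.56, 0.38 to 0.74, and 1.15, 0.95 to 1.36). Cox6a2, a subunit of cytochrome c oxidase, was at 113 against 73.4 CPM in multiparous cells and lay below the 142 CPM of virgin cells. Its ratio of 0.63 against multiparous cells was 0.063 without the limits on Nupr1 and Pdyn. Fh1, the fumarase gene, was at 103, 71.0 and 55.3 CPM. As a group, the 72 oxidative phosphorylation genes did not follow, with 31 higher against multiparous cells and a median of -0.018.

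The lowest ratios against multiparous cells were those of Gpx3, a secreted glutathione peroxidase, at 39.9 against 68.2 CPM (-0.77, -1.08 to -0.47), and of Cplx2, a complexin of regulated exocytosis, at 40.2 against 60.8 CPM (-0.60, -0.91 to -0.29). Gpx3 stood above the 18.1 CPM of the virgin cells, so carriers lay between both sets, and its ratio against multiparous cells was -0.022 without the limits on Nupr1 and Pdyn. Il1r1, the interleukin-1 receptor, was at 61.1, 88.6 and 114 CPM, lower than in both. Igfbp7, which belongs to the list of lowered genes above, was at 69.6, 87.7 and 125 CPM and was named for its low ratio against virgin cells.

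Within β-cell identity and maturity 15 of 24 genes were higher than in multiparous cells, with a median of 0.069, whereas the list's sum was lower at -0.12 (-0.13 to -0.11) because Iapp makes up most of it. The median was -0.0015 with a mitochondrial share under 5% and -0.042 without the limits on Nupr1 and Pdyn. Against virgin cells 16 of the 24 genes were lower, beside 6423 of 10461 among all genes, so the count is near that of all genes. The list's median was -0.20 and its sum -0.17 (-0.18 to -0.16). Slc2a2 stood at 210, 193 and 325 CPM and Slc30a8, the zinc transporter of insulin granules, at 342, 328 and 498 CPM, both chosen after their values were seen. Ucn3, urocortin 3 of mature β cells, was at 269, 215 and 229 CPM (0.32, 0.18 to 0.46, and 0.23, 0.10 to 0.37). Its ratio against multiparous cells was 0.035 without the limits on Nupr1 and Pdyn, and against virgin cells -0.094 when 2 UMIs were required. Iapp was at 36785, 40768 and 41727 CPM. Nkx2-2, a β-cell transcription factor, stood at 49.0 CPM against 62.7 CPM in both matched sets. Of the granule genes, Chga, the major chromogranin, was at 5758, 7135 and 7098 CPM (-0.31, -0.34 to -0.28, and -0.30, -0.33 to -0.28), and the prohormone convertase Pcsk1 at 204, 167 and 189 CPM. Chga per cell had a median of 5496 CPM in carriers (2195 to 16878) and 6472 CPM in multiparous cells (1673 to 14883), with wide overlap. Among genes of immature or dedifferentiated cells 5 of 12 were measured, and Rbp4, at 19.3 against 33.8 CPM in multiparous cells, was detected in 26 and 30 cells. Rbp4 is also among the δ markers above and stood at 866 CPM in multipara α cells.

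Stress genes separated the carriers from virgin cells but hardly from other multiparous cells. The study named 8 stress genes besides Nupr1, which the rule limited and which was left out here. This list of 8 was chosen on these samples and so is no independent evidence of its direction. It had a median of 0.59 against virgin cells with 7 higher, and 0.039 against multiparous cells with 5 higher. Atf3, a stress-induced transcription factor, was at 265, 277 and 146 CPM, and Dnajb1, a heat-shock co-chaperone, at 255, 226 and 161 CPM. Sdf2l1, of the endoplasmic reticulum (ER), was at 250, 223 and 167 CPM. All 33 ER folding genes were measured, with 28 higher than in virgin cells (median 0.17) and 18 higher than in multiparous cells (median 0.020). The integrated stress response, another arm of stress signalling, had a median of -0.050 against virgin and -0.23 against multiparous cells. In the latter comparison 11 of 18 genes were lower, beside 5914 of 10363 among all genes. The median against virgin cells was 0.12 without the limits on Nupr1 and Pdyn and -0.40 with pairing on detected genes. Nupr1 is itself stress-responsive, and the part of its limit in these values was not tested. Cholesterol synthesis had 18 of 23 genes higher than in virgin cells (median 0.21, and -0.00051 when 2 UMIs were required) and 10 of 23 higher than in multiparous cells (median -0.033), and Hmgcs1, an early enzyme of the pathway, stood at 112, 83.9 and 48.4 CPM.

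Immediate early genes, which follow cell activity and tissue dissociation, were higher in carriers in 14 of 18 cases against either matched set, with medians of 0.14 and 0.36. Nr4a2 was at 42.4, 25.3 and 33.8 CPM (0.74, 0.36 to 1.13, against multiparous cells, and 0.00087 when 2 UMIs were required) and Arc, an activity-regulated gene, at 61.9, 44.3 and 42.9 CPM. In the 21 cells with at least 2 UMIs of the 5 genes the median against multiparous cells was -0.059. The dissociation with trypsin was shared by both libraries, and its part in these values was not tested. Cytosolic ribosomal protein genes were lower in 50 of 59 cases against multiparous and 58 of 59 against virgin cells, with medians of -0.048 and -0.14 that lay close to the medians of all genes.

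Proliferation transcripts were rare. Mki67, a marker of cycling cells, had 1 UMI in the 103 carriers and none in either matched set. Of 25 cell-cycle genes 8 were measured against multiparous cells, with a median of -0.059, and 10 against virgin cells, with a median of -0.37. Ccnd2, the cyclin D2 gene, was at 365, 347 and 498 CPM (0.070, -0.042 to 0.18, and -0.45, -0.55 to -0.35). Among inhibitors and senescence genes, Cdkn2a was detected in 6 carriers, 2 multiparous and 3 virgin cells, and the 11 measured genes had a median of 0.012 against multiparous cells. Igf1r, the insulin-like growth factor receptor, was at 60.8, 58.0 and 40.1 CPM.

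**Figure D5:**
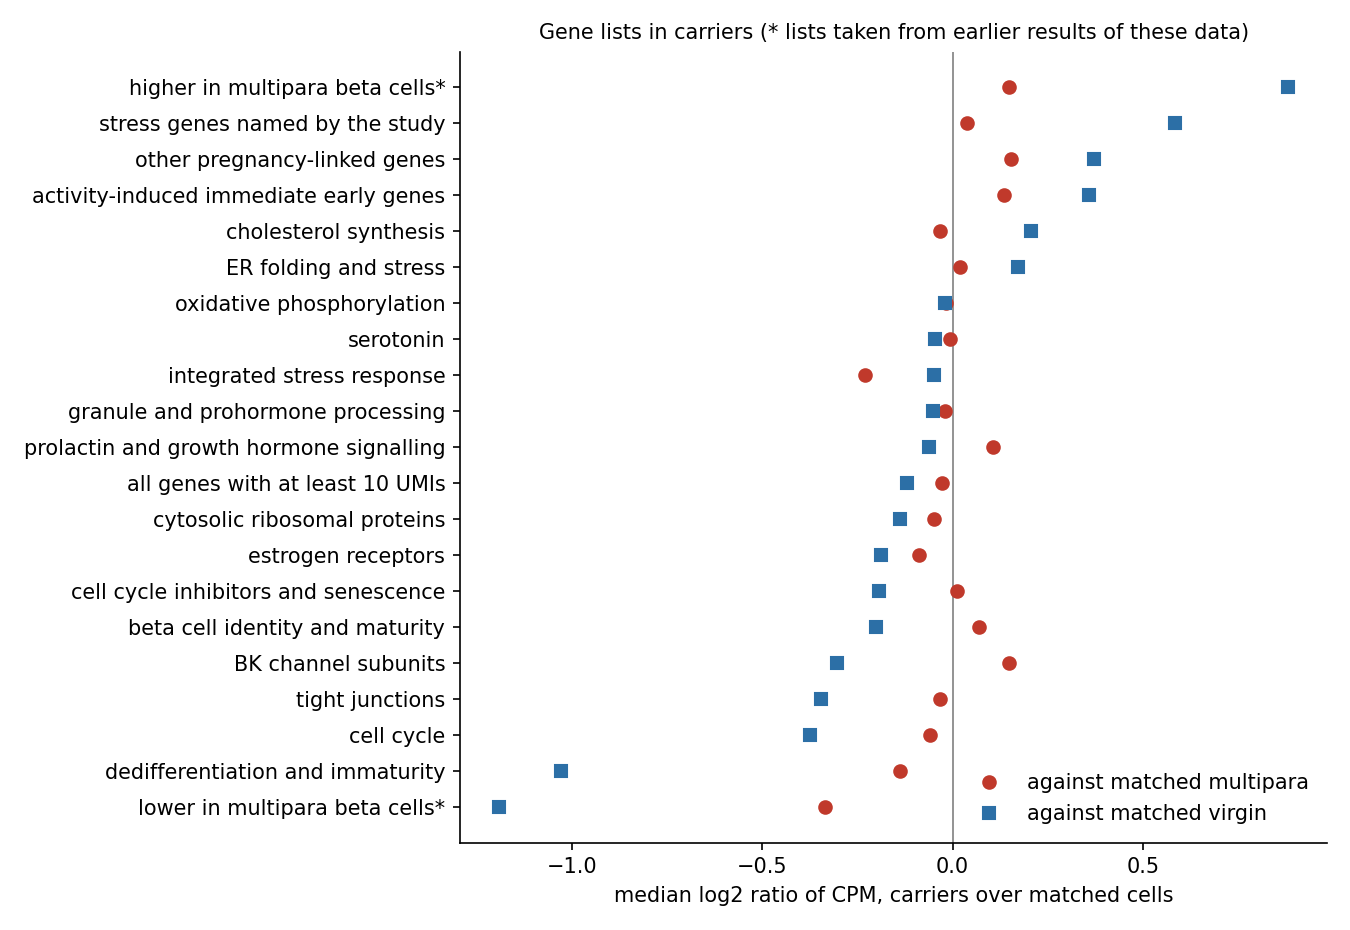
Median log2 ratio of each gene list in the carriers over depth-matched multiparous β cells (red circles) and depth-matched virgin β cells (blue squares), over genes with at least 10 UMIs in the 2 sets together. Against multiparous cells the medians lay between -0.33 and 0.15, and against virgin cells between -1.19 and 0.88.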

How the data were processed

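Islet cells of 1 virgin and 1 multipara library were read from the deposited matrices, which hold UMI counts per gene and barcode that the authors made with Cell Ranger 3.1.0 (Seurat 3.0 and GRCm38 are in the submitters' processing notes). The libraries held 94853806 and 82503776 UMIs in 5463 and 5075 barcodes. The filter of the study (over 200 and under 6000 genes, under 60000 UMIs, mitochondrial share below 10%) left 4391 virgin and 3374 multipara cells. Doublets were kept. Scrublet (scanpy 1.11.5) gave an alternative without them. α cells had at least 5% Gcg and under 5% insulin.

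The members and lists were chosen with earlier results of these data known. Carriers were paired 1 to 1 with noncarriers by optimal assignment on log2 UMIs within 0.1. Counts were summed per set and scaled to CPM. Ratios carry exact conditional binomial, levels exact Poisson and shares exact Clopper-Pearson 95% intervals. A gene was called at a mean of at least 20 CPM and a 1.5-fold ratio. Lists used genes with at least 10 UMIs. Unseen shares are limited by 3 counts, except where an exact bound is given. 2 list symbols were read under older names (Ero1b, Ero1a).

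Genes named were the 5 genes, the 10 highest and 10 lowest ratios against multiparous and the 5 highest and 5 lowest against virgin cells at a mean of 50 CPM or more, all measured genes of the prolactin, serotonin, estrogen and pregnancy lists, up to 2 highest and 2 lowest of every other list, and Matn2, Lars2, Fmo1, Cdkn2a and Mki67. β markers and genes the limits used are described beside them. Gene locations were found in GENCODE M21 for 30934 of 31053 identifiers. Scripts were tested on simulated counts. Alternatives were doublets, mitochondrial share, the Nupr1 and Pdyn limits, 2 UMIs, stricter hormone limits, thinning, leaving out Esr1 or Tph1, pairing on genes, equal weight per cell, TMM and other CPM floors. Python 3.11.15, numpy 2.4.6, pandas 2.3.3, scipy 1.17.1 and matplotlib 3.10.9 were used. Some items that the naming rule selects are not reported here.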

Additional observations from a re-analysis of the deposited data

How the results depend on the processing

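The excess of carriers in the multipara over the virgin library kept its direction under every alternative run. The carrier genes were proposed from these same libraries, so this direction was set in advance and is no independent evidence. The alternatives reused the same cells and describe only how the size of the shares moved. The multipara share was 21.5% without the Nupr1 and Pdyn limits, 3.29% when 2 UMIs were required and 7.49% after thinning to 10000 UMIs, and the virgin share in the last 2 was 0% and 0.279%. Co-detection of Lrrc55 turned to -2.25 percentage points when cells were paired on detected genes.

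Counts of genes past 1.5-fold depended on the settings. Against multiparous cells the main 11 higher and 11 lower became 40 lower with pairing on genes, 21 and 29 with equal weight per cell, 17 lower at a mitochondrial share under 5%, 3 and 2 without the Nupr1 and Pdyn limits, 39 and 64 at 0 Nupr1 UMIs, 224 and 184 for the 21 cells with 2 UMIs, 20 higher without Esr1, 21 and 7 with TMM, 70 and 114 at 10 CPM and 3 and 2 at 50 CPM. The 10 CPM floor kept the same cells and tested more genes, and the 2-UMI setting used fewer cells. Against virgin cells 47 higher and 77 lower became 143 lower with pairing on genes, 125 lower with equal weight, 27 lower without the limits, 161 and 407 with 2 UMIs, and 91 and 25 with TMM.

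The stress median against multiparous cells (0.039) became 0.12 with pairing on genes, 0.17 at 0 Nupr1 UMIs, 0.16 with 2 UMIs and 0.094 without Esr1. The serotonin median (-0.0075) became 0.12 with pairing on genes and 0.20 with 2 UMIs, and the prolactin median (0.11) 0.21 without Tph1. The granule median turned to 0.012, 0.028 and 0.017 against multiparous cells with pairing on genes, 0 Nupr1 UMIs and TMM, and to 0.011, 0.025 and 0.079 against virgin cells with equal weight, no limits and TMM. Against multiparous cells, pairing on genes turned Gm26917 (-0.058, and -1.25 at 0 Nupr1 UMIs). Against virgin cells it turned Maob (0.0074) and Npy (-0.34). A mitochondrial share under 5% turned the identity median (-0.0015), the ribosomal median (0.0091) and Fmo1 (-0.052) against multiparous cells. Leaving out the Nupr1 and Pdyn limits turned identity (-0.042), Klf4 (0.0041), Sdf2l1 (-0.015) and Rps28 (0.019) against multiparous and Mthfd2 (0.064) and Ins2 (-0.021) against virgin cells.

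Requiring 2 UMIs, which leaves 21 carriers, turned against multiparous cells the ribosomal (0.019), integrated stress (0.027) and immediate early (-0.059) medians, Gm26917 (-0.029), Fmo1 (-0.17), Klf4 (0.79), Rasd1 (-0.39), Arc (-0.23), Syndig1l (-0.32), Dnajb1 (-0.57) and Sec61a1 (0.34). Against virgin cells it turned the other pregnancy-linked (-0.075), cholesterol (-0.00051), cell-cycle (0.15) and ribosomal (0.0078) medians, Arc (-0.50), Syndig1l (-0.32), Ghr (0.079), Ivd (-0.073), Kcnmb2 (0.12), Ucn3 (-0.094), Rbp4 (0.14), Cdk4 (0.033) and Zfp36 (-0.019). The cause was not tested in any of these cases. No replicate could be left out with 1 library per group. No paired analysis was possible because each group was 1 library and no test was run.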

Other observations

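Among barcodes that failed the cell filter but passed the insulin, hormone, Nupr1 and Pdyn limits, 8 of 152 multipara barcodes (5.26%, 2.30 to 10.1) and 0 of 117 virgin barcodes held any of the 5 genes, at median depths of 4759.5 and 11628 UMIs. The intervals of both libraries overlap.

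Cells in which insulin and the other islet hormone genes together gave under 5% of UMIs also held some of these transcripts. Esr1 was found in 12 of 821 such virgin cells (1.46%, 0.757 to 2.54) and 5 of 444 multipara ones (1.13%, 0.367 to 2.61), and Rerg in 6 (0.731%) and 2 (0.450%). Among δ cells, 7 of 388 virgin (1.80%, 0.728 to 3.68) and 6 of 337 multipara cells (1.78%, 0.656 to 3.83) held any of the 5 genes. No excess in the multipara library was detectable in either of these groups, and neither held Tph1 in more than 1 cell per library.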
